A study of Sus scrofa with 4 samples.

Results

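Lipid storage and adipogenic genes were followed as a set of 10 genes, chosen by name: PLIN1, PLIN2 and PLIN4, which encode perilipins, the transcription factor genes PPARG and CEBPA, the lipid uptake and transport genes LPL, CD36, FABP4 and FABP5, and the adipokine gene ADIPOQ. All 10 were found among the 29263 genes counted in each library. The libraries came from lung cells of pigs (Sus scrofa) of the LGR5-H2B-GFP knock-in line, where a fluorescent histone reports transcription of LGR5, the gene of an R-spondin receptor. Every library carries this knock-in, so that the comparison is between sorted fractions: 2 biological replicates of bright cells (GFP-HI) and 2 of cells without fluorescence (GFP-NEG). No treatment is named, no age in numbers is given, and the protocol covers adult and fetal lung together. The name of the deposited comparison table reads adult pig. The sorting gates of these 4 libraries, any pooling of animals and the exact cells in each gate were not given in the sources used here.

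Cells store neutral lipid in droplets, whose surface is coated by perilipins. Fatty acids reach the droplet after lipoprotein lipase frees them from circulating lipoproteins, CD36 helps them across the membrane and fatty acid-binding proteins carry them in the cytosol, while PPARG and CEBPA drive the adipocyte programme. In lung, lipid droplets are known from lipid-bearing fibroblasts beside the alveoli, from macrophages that clear surfactant and from type 2 epithelium, and CD36 and FABP4 are also genes of capillary endothelium.

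The check of the sort came first. LGR5 stood at 146 and 152 CPM in the GFP-HI libraries and at 1.55 and 0.767 CPM in the GFP-NEG libraries, where CPM are counts scaled to a common library total with edgeR's TMM factors (trimmed mean of M-values). GFP-HI libraries held 24200550 and 24689986 counts and GFP-NEG libraries 6292253 and 7045652, so that depth and group cannot be told apart by design. A single count was worth 0.0453 to 0.0496 CPM in GFP-HI and 0.110 to 0.155 CPM in GFP-NEG. The surfactant gene SFTPC was counted in each library, with 566 to 3432 counts. Transcript lengths were not used here, so an order of CPM values between genes is not an order of expression levels.

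Within the set, the droplet coat gene PLIN2 was higher in GFP-HI, 5.27-fold, and CD36 and ADIPOQ were lower. The adipogenic regulators PPARG and CEBPA lay close to equal levels with wide intervals, and none of the other members passed the test. That made 1 member higher and 2 lower of 10 tested, at an adjusted p under 0.05 in edgeR's quasi-likelihood test. Over all 19682 tested genes, 8.35% were higher and 27.6% lower, so the shares of members called are near the background in both directions. The median log2 fold change of the members was -1.29, against -0.25 over all tested genes, and 1 of 10 members had a positive value, against 44.3% of all tested genes. The libraries of the 2 groups did not overlap for 1 member higher in GFP-HI and 5 lower, where 27.7% and 42.0% of tested genes had such a gap. In sorted bulk RNA, fewer cells of a type and less RNA per cell cannot be told apart.

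**Figure D1:**
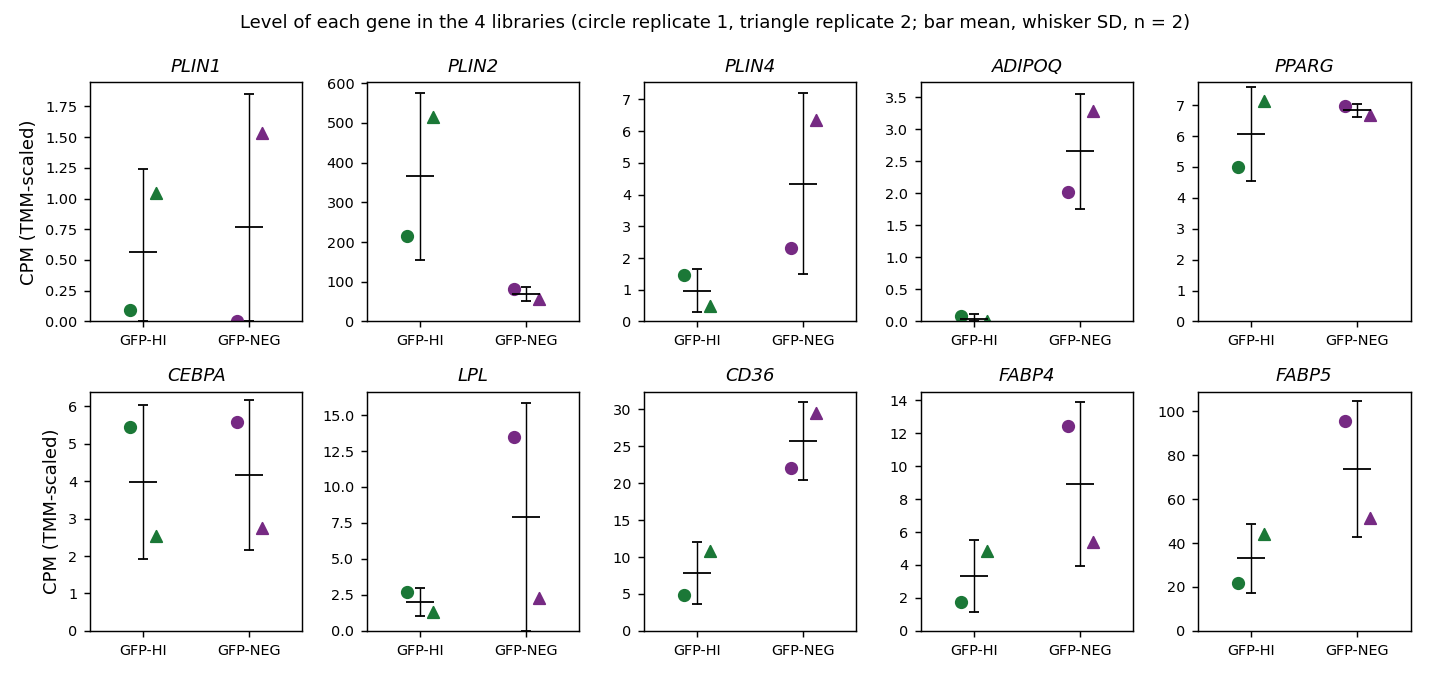
Level of each of the 10 genes in CPM (linear axis from 0, its own scale in each panel) in GFP-HI (green) and GFP-NEG (purple) libraries. Circles are replicate 1 and triangles replicate 2, and the bar and whisker are the mean and SD of 2 libraries, with whiskers ended at 0. PLIN2 lies higher in both GFP-HI libraries, ADIPOQ and CD36 lie lower in both, and the libraries of PPARG, CEBPA, PLIN1 and LPL overlap.

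PLIN2 encodes perilipin 2, the droplet coat protein found in most cell types that hold lipid. GFP-HI replicates 1 and 2 gave 4765 and 10367 counts of it, and GFP-NEG replicates 1 and 2 gave 528 and 515. In CPM this was 216 and 514 against 82.0 and 56.5, or 365 ± 211 against 69.2 ± 18.0 (SD, n = 2 libraries in each group). The lower GFP-HI library was above both GFP-NEG libraries, and the spread between the GFP-HI replicates was wide. Its log2 fold change was 2.40 ± 0.66 (SE), with a 95% interval of 1.11 to 3.69 (adjusted p = 0.0013, edgeR). Within replicate 1 the difference in log2 CPM was 1.40, and within replicate 2 it was 3.18. The call ended in the fits without GFP-HI replicate 2 (log2 fold change 1.72, adjusted p = 0.083) and without GFP-NEG replicate 2 (2.12, adjusted p = 0.16, edgeR), which leave a group with 1 library that is assumed to vary like the others.

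PLIN1, the perilipin of adipocytes, was near the limit of detection. Only 2 and 21 counts were found for GFP-HI and 0 and 14 for GFP-NEG, or 0.0906 and 1.04 CPM against 0 and 1.53 CPM. A count of 0 in GFP-NEG replicate 1 allows up to 0.466 CPM (3 counts, counting error only). Both replicate 2 libraries were above both replicate 1 libraries, and the groups overlapped (log2 fold change -0.51, 95% interval -2.82 to 1.81, adjusted p = 0.78, edgeR). PLIN4, a perilipin that coats nascent droplets in adipocytes, stood at 1.45 and 0.496 CPM in GFP-HI and at 2.33 and 6.36 CPM in GFP-NEG, from 10 to 58 counts a library. Both GFP-HI values were under both GFP-NEG values, but the fold change of -2.15 had an interval of -4.40 to 0.09 and did not pass (adjusted p = 0.14, edgeR).

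RefSeq (Sscrofa11.1) gives PLIN2 a transcribed pseudogene within its span, PLIN1 an overlapping long non-coding RNA, and PLIN4 an overlap with its neighbour HDGFL2. The strand setting of the counting is not given in the sources used here, so reads from such overlaps cannot be assigned with certainty. HDGFL2 itself stood at 77.4 and 40.9 CPM in GFP-HI and at 40.5 and 27.7 CPM in GFP-NEG, opposite in order to PLIN4. RefSeq lists no overlapping gene for the other 7 members.

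PPARG encodes the nuclear receptor that is the master regulator of fat cell formation, and macrophages of the alveoli also depend on it. It was at 4.98 and 7.14 CPM in GFP-HI and at 6.99 and 6.69 CPM in GFP-NEG. Its libraries overlapped, and the log2 fold change of -0.17 had a 95% interval of -1.71 to 1.36 (adjusted p = 0.89, edgeR). CEBPA, which encodes a partner transcription factor in fat cells and a factor of myeloid and alveolar cells, stood at 5.44 and 2.53 CPM in GFP-HI and at 5.59 and 2.74 CPM in GFP-NEG. In both groups replicate 1 was the higher library, and the within-replicate differences were -0.04 and -0.11. Its log2 fold change of -0.06 had an interval of -1.92 to 1.81 (adjusted p = 0.97, edgeR). Changes of more than 3-fold in either direction lie within it. The width of this interval comes from the spread of genes at like levels, not from the libraries of CEBPA alone. The intervals of both genes hold 0 and do not show that the fractions have equal levels.

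CD36, the scavenger receptor and fatty acid translocase, was counted 107 and 217 times for GFP-HI and 142 and 269 times in the shallower GFP-NEG libraries. This was 4.85 and 10.8 CPM for GFP-HI against 22.0 and 29.5 CPM for GFP-NEG, or 7.80 ± 4.18 against 25.8 ± 5.26 (SD, n = 2). The groups did not overlap. CD36 was 3.30-fold lower in GFP-HI, with a log2 fold change of -1.72, a standard error of 0.59 and an interval of -2.88 to -0.56 (adjusted p = 0.013, edgeR). The differences within replicates 1 and 2 were -2.15 and -1.44. The call ended without GFP-HI replicate 1 (-1.11, adjusted p = 0.23) and without GFP-NEG replicate 2 (-1.54, adjusted p = 0.20, edgeR).

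LPL encodes lipoprotein lipase, which works on the capillary wall but is made by the cells around it. It stood at 2.67 and 1.34 CPM in GFP-HI and at 13.5 and 2.30 CPM in GFP-NEG. GFP-NEG replicate 1 stood apart from the other libraries, and GFP-NEG replicate 2 lay between the GFP-HI values. The log2 fold change of -1.96 (standard error 0.92, adjusted p = 0.081, edgeR) became -0.15 without GFP-NEG replicate 1 and -2.78 without GFP-NEG replicate 2, the latter past the threshold (adjusted p = 0.013).

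FABP4 and FABP5 encode fatty acid-binding proteins of fat cells, macrophages and endothelium, and of epidermis and many other cells. RefSeq places both on the same chromosome, with PMP2 of the same protein family between them. FABP4 was at 1.77 and 4.86 CPM in GFP-HI and at 12.4 and 5.37 CPM in GFP-NEG. FABP5 was at 22.0 and 44.0 CPM in GFP-HI and at 95.5 and 51.6 CPM in GFP-NEG. For both genes GFP-NEG replicate 1 was the highest library and GFP-HI replicate 1 the lowest, and the 2 libraries of replicate 2 lay next to each other. The FABP4 difference was -2.72 within replicate 1 and -0.14 within replicate 2, and that of FABP5 was -2.11 and -0.23. Their log2 fold changes were -1.42 (interval -3.03 to 0.19, adjusted p = 0.18) and -1.16 (interval -2.18 to -0.14, adjusted p = 0.069, edgeR), and neither passed. FABP5 passed under upper-quartile scaling (-1.44, adjusted p = 0.017) and with library size alone (-1.56, adjusted p = 0.011). The 2 scalings also moved the median of all tested genes, to -0.58 and -0.68.

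ADIPOQ, which encodes adiponectin, the hormone secreted by adipocytes, was low in GFP-NEG and at or near 0 in GFP-HI. GFP-HI replicates 1 and 2 gave 2 and 0 counts and GFP-NEG replicates 1 and 2 gave 13 and 30, or 0.0906 and 0 CPM against 2.02 and 3.29 CPM (0.0453 ± 0.0641 against 2.65 ± 0.898, SD, n = 2). The ratio of the summed counts at equal depth was 58.4 in favour of GFP-NEG, with an exact 95% interval of 15.2 to 497 that covers counting error only. The fitted log2 fold change was -5.60 ± 1.55 (SE, adjusted p = 0.0014, edgeR), and both GFP-HI libraries were under both GFP-NEG libraries. It was not past the threshold without GFP-HI replicate 2 (-4.63, adjusted p = 0.10) or without GFP-NEG replicate 2 (-5.26, adjusted p = 0.11). Of 32 genes known mainly from organs other than lung, such as retina, pancreas, kidney and mammary gland, 10 and 11 had a count in GFP-HI replicates 1 and 2, and 21 and 23 in the shallower GFP-NEG libraries. Their medians were 0 CPM in both GFP-HI libraries and 0.311 and 0.603 CPM in GFP-NEG. Some were plainly counted in lung, such as DMP1 with 276 to 995 counts in each library. Of the 8 that could be tested, APOA2, GFAP and OPALIN were lower in GFP-HI and CYP7A1 was higher. In GFP-NEG replicates 1 and 2, 7 and 6 of the 32 genes stood at or above ADIPOQ in CPM. In GFP-HI replicate 1, 10 did. APOA2 gave 0 counts in both GFP-HI libraries and 25 and 65 in GFP-NEG replicates 1 and 2. Whether the ADIPOQ counts came from fat cells was not tested.

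**Figure D2:**
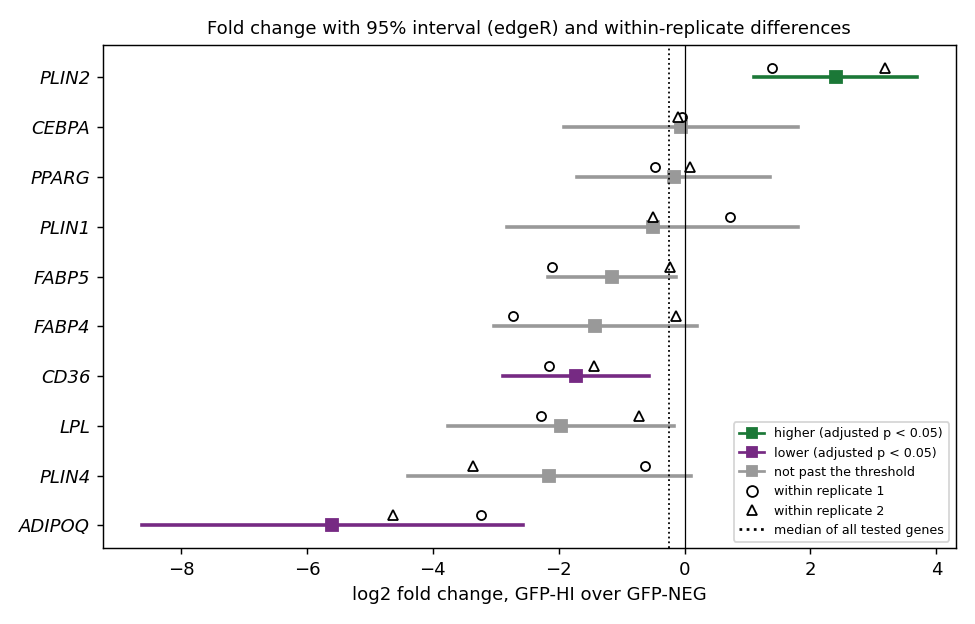
Log2 fold change of GFP-HI over GFP-NEG for each gene (square) with its 95% interval (line) computed from the edgeR test, and the difference in log2 CPM within replicate 1 (circle) and replicate 2 (triangle). Coloured genes passed an adjusted p under 0.05 and the dotted line is the median of all tested genes, -0.25. PLIN2 alone lies to the right with an interval clear of 0, and the replicates of FABP4, FABP5, PLIN4 and PLIN2 differ in size.

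The authors' deposited table lists 9 of the 10 members and leaves out ADIPOQ. In the authors' deposited table PLIN2 has a log2 fold change of 2.39 (adjusted p = 0.00035) and CD36 one of -1.73 (adjusted p = 0.03). The other 7 listed members have adjusted p-values from 0.12 to 0.97 in the authors' deposited table, which calls 8.20% of its 16250 genes higher and 11.2% lower in GFP-positive cells.

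Around the members, 72 further genes of lipid storage and adipogenesis were counted, in 6 lists by role. Of 70 that could be tested, 11 were higher and 20 lower in GFP-HI, and the median log2 fold change was 0.20, above the -0.25 of all tested genes. Over all tested genes 8.35% were higher and 27.6% lower. The share of related genes lower is near this background, and the share higher is above it. This difference in shares was not tested. The counts of each list stand against the same background. In 5 of the lists genes passed in both directions. In the list on lipolysis 0 genes were higher and 4 lower of 8 tested.

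Among genes of the droplet coat and droplet assembly, 1 was higher and 2 were lower of 10 tested (median 0.52). FITM2, which encodes a membrane protein needed for droplets to bud from the endoplasmic reticulum, stood at 19.6 and 30.1 CPM in GFP-HI and at 9.32 and 3.62 CPM in GFP-NEG (log2 fold change 1.95, adjusted p = 0.0058, edgeR). PLIN5, the perilipin of tissues that burn fat, was at 5.16 and 7.29 CPM in GFP-HI and at 117 and 30.4 CPM in GFP-NEG (-3.56, adjusted p = 3.7e-08). CIDEB, which encodes a droplet protein of liver and gut, fell by 3.28 on the log2 scale (adjusted p = 0.0039). PLIN3 and CIDEC, chosen after their values were seen, had log2 fold changes of 0.29 and 0.67 (adjusted p = 0.73 and 0.53, edgeR). The perilipin genes therefore did not move together: PLIN2 was higher, PLIN5 was lower, and PLIN1, PLIN3 and PLIN4 did not pass. The call of FITM2 was lost under DESeq2 with the replicate block and without GFP-HI replicate 2 or GFP-NEG replicate 2 (1.38, adjusted p = 0.34, at the weakest). That of CIDEB was lost without GFP-HI replicate 2 (-2.42, adjusted p = 0.092). PLIN5 passed in all 13 alternatives to the processing, with values from -4.26 to -2.23.

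Triglyceride synthesis genes split as well, with 2 higher and 4 lower of 12 tested (median 0.20). GPAM, which encodes the acyltransferase of the first step of glycerolipid synthesis, was at 69.8 and 77.3 CPM in GFP-HI and at 11.6 and 16.3 CPM in GFP-NEG. Its log2 fold change was 2.39 (adjusted p = 1.3e-04, edgeR), and the call held in all 13 alternatives, with values from 1.93 to 2.62. DGAT2, which encodes an enzyme of the last step, gave 33 and 3 counts for GFP-HI and 174 and 69 for GFP-NEG (-4.36, adjusted p = 3.2e-06), and its call held in all 13 as well, with values from -6.66 to -3.13. Acyl-CoA synthetase genes, whose products activate fatty acids, went in opposite directions. ACSL1 fell by 3.10 and ACSL4 by 2.60 on the log2 scale (adjusted p = 8.7e-06 and 7.8e-04), while ACSL3 was higher by 1.32 (adjusted p = 0.035). LPIN2, a phosphatidate phosphatase gene, fell by 1.32 (adjusted p = 0.035). ACSL3 lost its call in 8 of 13 alternatives, among them library size alone and the fits without either GFP-HI library or GFP-NEG replicate 2 (0.83, adjusted p = 0.64, at the weakest). LPIN2 lost it in 7, among them DESeq2 with the replicate block and each fit without a library (adjusted p up to 0.42), and ACSL4 without GFP-HI replicate 2 (-2.20, adjusted p = 0.095).

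All 8 tested genes of lipolysis and its control had negative values, with a median of -1.20, and 4 passed as lower. LIPE, the hormone-sensitive lipase gene, was at 9.97 and 6.30 CPM in GFP-HI and at 39.3 and 26.7 CPM in GFP-NEG (-2.02, adjusted p = 0.0021, edgeR). G0S2, which encodes an inhibitor of the triglyceride lipase ATGL, was at 21.4 and 4.36 CPM in GFP-HI and at 122 and 57.6 CPM in GFP-NEG (-2.80, adjusted p = 1.1e-05). ADRB3, the beta-adrenergic receptor gene of fat cells, fell by 4.29 on the log2 scale (adjusted p = 0.0085), from at most 42 counts a library. The ATGL co-activator gene ABHD5 fell by 1.54 (adjusted p = 0.022). With the replicate block ADRB3 was no longer past the threshold (adjusted p = 0.064 in edgeR and 0.096 in DESeq2). Without GFP-HI replicate 2 the calls of ADRB3, G0S2 and LIPE were lost, and without GFP-NEG replicate 1 that of LIPE, with adjusted p-values (edgeR) up to 0.19 for ADRB3, 0.069 for G0S2 and 0.094 for LIPE. ABHD5 lost its call under DESeq2 with the replicate block and in each fit without a library (adjusted p up to 0.17).

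For fatty acid uptake and the control of lipoprotein lipase, 2 genes were higher and 3 lower of 11 tested (median 0.25). LMF2, which encodes a relative of the lipase maturation factor, and SLC27A1, a fatty acid transport protein gene, were higher by 1.52 and 1.30 on the log2 scale (adjusted p = 0.040 and 0.042, edgeR). These 2 calls were lost in 8 and 9 of 13 alternatives, among them upper-quartile scaling, library size alone and the fits without either GFP-HI library or GFP-NEG replicate 2 (adjusted p up to 0.54 and 0.64), for LMF2 also without GFP-NEG replicate 1, and for SLC27A1 also under DESeq2 with the replicate block. VLDLR, a receptor for triglyceride-rich lipoproteins, was at 6.89 and 5.35 CPM in GFP-HI and at 38.5 and 28.5 CPM in GFP-NEG (-2.45, adjusted p = 2.2e-04), and its call held in all 13. GPIHBP1, the endothelial anchor of lipoprotein lipase, gave 3 and 3 counts for GFP-HI and 22 and 8 for GFP-NEG (-3.82, adjusted p = 0.017). GPIHBP1 had a result in 10 of 13 alternatives, and its call was lost in 6 of them. Losses came with no filter on low counts and with the replicate block (adjusted p = 0.12 in edgeR, and lost in DESeq2 too). The fits without either GFP-HI library or GFP-NEG replicate 2 lost it as well. FABP3, the heart-type fatty acid-binding protein gene, fell by 1.51 (adjusted p = 0.030) and lost its call in 5 of 13, among them DESeq2 with the replicate block and the fits without GFP-HI replicate 1 or GFP-NEG replicate 2 (adjusted p up to 0.58).

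Of 16 adipogenic transcription factor genes tested besides PPARG and CEBPA, 2 were higher, 2 were lower and 12 did not pass (median 0.20). EBF1, an early factor of fat and B cell lineages, was at 203 and 206 CPM in GFP-HI and at 66.0 and 47.8 CPM in GFP-NEG (1.85, adjusted p = 0.0072, edgeR). ZNF423, which marks committed preadipocytes in other species, was at 93.8 and 78.7 CPM against 34.0 and 17.4 CPM (1.75, adjusted p = 0.0042). CEBPB, which acts before PPARG in the adipogenic cascade and is also induced in inflammation, was at 20.7 and 8.23 CPM against 64.0 and 67.1 CPM (-2.18, adjusted p = 3.0e-04). EBF2 gave 0 and 10 counts for GFP-HI and 24 and 38 for GFP-NEG (-3.97, adjusted p = 0.011). RXRA, the gene of the partner receptor of PPARG, was picked after its values were seen and had a log2 fold change of 0.29 (adjusted p = 0.74). Single libraries decided these calls. EBF1 was lost without GFP-HI replicate 2 or GFP-NEG replicate 2 (adjusted p up to 0.30), ZNF423 without GFP-HI replicate 1 or GFP-NEG replicate 2 (up to 0.37), CEBPB without GFP-HI replicate 2 (0.10), and EBF2 without GFP-HI replicate 1 or either GFP-NEG library (up to 0.15).

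Adipokines, their receptors and restraints of adipogenesis had 4 genes higher and 5 lower of 13 tested (median 0.32). The hormone genes LEP and RETN had the most negative values. LEP, the leptin gene, had 0 counts in both GFP-HI libraries against 8 and 16. It was at least 8.35-fold lower there with the lower GFP-NEG library set against 3 counts per library (adjusted p = 2.6e-04, edgeR). RETN, the resistin gene, was at 0.634 and 0 CPM in GFP-HI and at 17.2 and 6.03 CPM in GFP-NEG (-5.13, adjusted p = 9.0e-06). On the receptor side, CDH13, which encodes T-cadherin, a binding partner of adiponectin, was at 173 and 232 CPM in GFP-HI and at 34.8 and 13.9 CPM in GFP-NEG (3.06, adjusted p = 1.4e-05). The leptin receptor gene LEPR was higher by 1.45 (adjusted p = 0.019), a call lost in 7 of 13 alternatives, among them library size alone, DESeq2 with the replicate block and the fits without GFP-HI replicate 1 or either GFP-NEG library (adjusted p up to 0.41). LEP had a result in 9 of 13 alternatives, and DESeq2 with the replicate block was among those that gave it no adjusted p. It lost its call without GFP-NEG replicate 1 or either GFP-HI library. RETN and CDH13 passed in all 13, with values from -10.07 to -4.12 and from 2.50 to 3.91.

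Restraints of adipogenesis also went both ways. GATA2, which encodes a factor that holds preadipocytes back, was at 251 and 168 CPM in GFP-HI and at 34.8 and 11.9 CPM in GFP-NEG (3.17, adjusted p = 8.1e-06, edgeR). GATA3, known for the same role and as a T cell factor, was at 1.18 and 2.83 CPM against 30.1 and 72.5 CPM (-4.68, adjusted p = 4.4e-11). NR2F2, the gene of the orphan receptor COUP-TFII, was higher by 2.29 (adjusted p = 3.8e-04), although its within-replicate differences of 1.06 and 4.01 were far apart. WNT10B, a Wnt ligand that blocks adipogenesis, fell by 3.01 (adjusted p = 0.017), and KLF2, the fifth lower gene of the list, named after its value was seen, by 2.02 (adjusted p = 0.0023). CFD, the gene of the adipokine adipsin, was picked after its values were seen. It was at 1093 and 2214 CPM in GFP-HI and at 1172 and 799 CPM in GFP-NEG, and the difference did not pass (0.75, adjusted p = 0.56). Without GFP-HI replicate 2 or GFP-NEG replicate 2 the calls of NR2F2, WNT10B and KLF2 were lost (adjusted p up to 0.29, 0.34 and 0.14), and that of WNT10B also under DESeq2 with the replicate block. GATA2 and GATA3 passed in all 13 alternatives, with values from 2.55 to 4.18 and from -5.31 to -3.95.

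**Figure D3:**
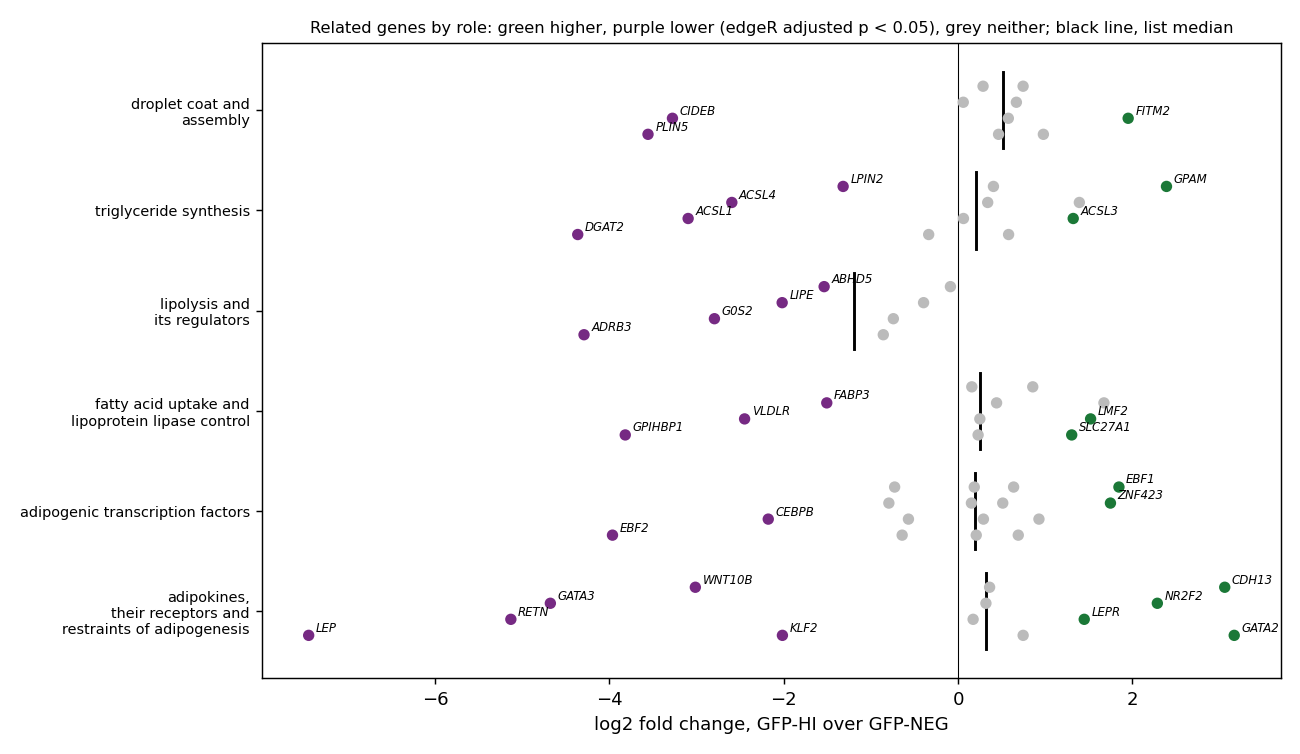
Log2 fold change of GFP-HI over GFP-NEG for the tested related genes in 6 role lists, 1 point per gene, with vertical spread only to separate points. Green genes were higher and purple genes lower at an adjusted p under 0.05 (edgeR), and the black line is each list's median, from -1.20 for lipolysis to 0.52 for the droplet coat. LEP has no count in GFP-HI, so that its fitted position depends on the prior count.

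Markers of the cell types that could carry these genes were summed in each library. The numbers of genes called in each marker list stand against 8.35% higher and 27.6% lower over all tested genes. The sums of 6 marker lists did not overlap between the groups, and those of alveolar type 2 and of smooth muscle and pericyte markers did. Adipocyte markers were low in all libraries, with a summed level of 23.6 and 30.7 CPM in GFP-HI and 63.0 and 54.7 CPM in GFP-NEG over 8 genes, of which 4 were lower and 0 higher. By mean CPM over the 2 libraries of a group, CIDEC led in GFP-HI, although LIPE was above it in replicate 1, and LIPE led in GFP-NEG. LEP and TRARG1 had 0 counts in both GFP-HI libraries. LEP, CIDEC, LIPE, GPD1 and ADRB3 of this list are also among the related genes above. LEP, LIPE and ADRB3 are therefore counted as lower in both places. PLIN1 and ADIPOQ, the members that mark mature fat cells, were at 1.04 CPM or less in the GFP-HI libraries where PLIN2 was higher.

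Fibroblast markers were higher in GFP-HI, with 6 of 10 genes past the threshold and a summed level of 86137 and 73872 CPM against 26569 and 9265 CPM. COL1A1, COL1A2 and COL3A1 had the highest CPM of this list in each library. Their GFP-HI libraries were above both GFP-NEG libraries, but they did not pass (adjusted p = 0.36, 0.46 and 0.29, edgeR). Within replicates 1 and 2 the log2 differences were 1.79 and 2.04 for COL1A1 and 1.30 and 2.82 for COL1A2. For COL3A1 they were 1.78 and 2.80. The standard errors of 1.53, 1.76 and 1.55 rest on the spread fitted to genes at like levels, not on these genes' libraries alone. Lipofibroblast markers, which share PDGFRA with that list, had 4 of 8 genes higher and 0 lower, and summed to 3521 and 4126 CPM in GFP-HI against 1848 and 145 CPM in GFP-NEG. INMT led that list by CPM in GFP-HI and LIMCH1 in GFP-NEG. TCF21, a transcription factor gene of lipid-bearing lung fibroblasts, gave 10937 and 15688 counts for GFP-HI and 2351 and 160 for GFP-NEG (1.73, adjusted p = 0.047, edgeR). Its log2 differences within replicates 1 and 2, 0.44 and 5.46, were far apart. TCF21 was picked after its values were seen, and its call was lost in 9 of 13 alternatives, among them the fits without either GFP-HI library or GFP-NEG replicate 2 (adjusted p up to 0.76). The fibroblast sum differed by 1.70 on the log2 scale within replicate 1 and by 3.00 within replicate 2, beside 1.40 and 3.18 for PLIN2. The lipofibroblast sum differed by 0.93 and 4.83. The part of either list in the PLIN2 difference was not tested.

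Blood endothelial markers were lower in GFP-HI in 9 of 10 genes, with a summed level of 225 and 222 CPM against 1480 and 607 CPM. Macrophage markers were lower in 7 of 12 genes and higher in 0, and summed to 593 and 515 CPM against 2290 and 947 CPM. Leukocyte markers were lower in 8 of 10 genes, at 275 and 525 CPM against 1860 and 2432 CPM. Of these lists no gene was at 0 in all 4 libraries. By mean CPM over the 2 libraries, PECAM1 led the endothelial list in GFP-HI and CLDN5 in GFP-NEG, C1QC led the macrophage list in both groups, and CD79A and PTPRC led the leukocyte list. In single libraries the order differed, with S100A12 above CD79A in GFP-HI replicate 1, and PECAM1 above CLDN5 and CSF1R above C1QC in GFP-NEG replicate 2. CD36, FABP4, FABP5 and LPL are known in these cell types, but of these genes only CD36 passed as lower in GFP-HI. The part of such cells in the values of these genes was not tested. The sums of the endothelial, macrophage, adipocyte, alveolar type 2 and smooth muscle lists were highest in GFP-NEG replicate 1, as were LPL, FABP4 and FABP5. The leukocyte sum and CD36 were highest in GFP-NEG replicate 2.

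Alveolar type 2 markers were lower in 3 of 7 genes, where 27.6% of all tested genes were lower. Their summed levels overlapped between the groups at 139 and 283 CPM against 460 and 196 CPM. SFTPC had the highest CPM of them in both groups. Smooth muscle and pericyte markers had 1 gene higher and 3 lower of 8, led by ACTA2 in both groups, with sums of 1746 and 2452 CPM against 2571 and 385 CPM.

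**Figure D4:**
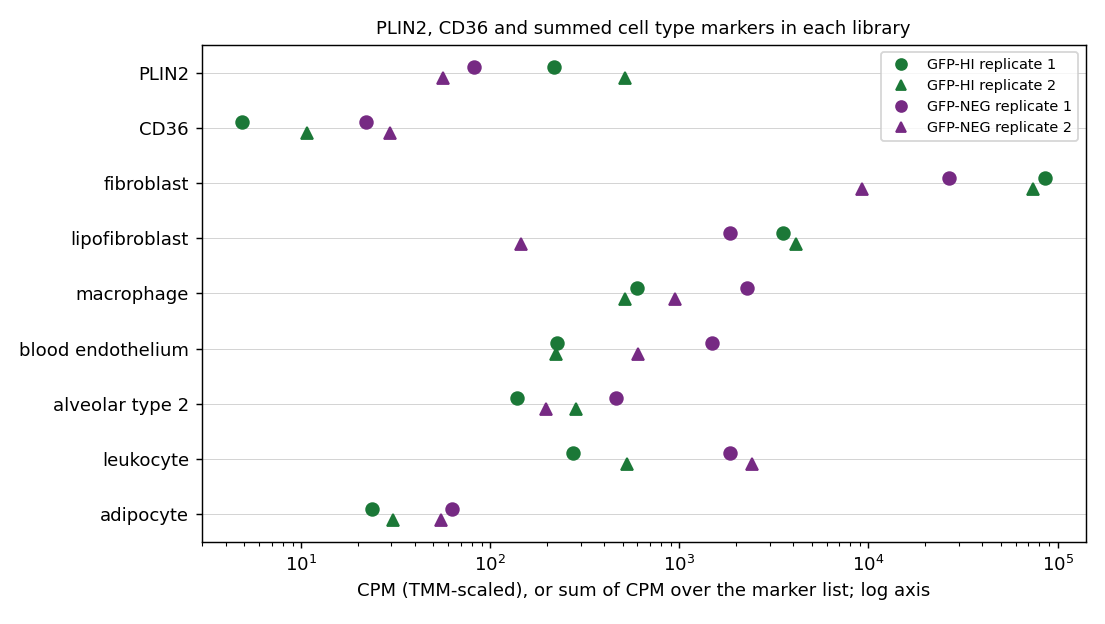
PLIN2 and CD36 in CPM, and the summed CPM of each marker list, in the 4 libraries on a log axis. Green is GFP-HI and purple GFP-NEG, circles are replicate 1 and triangles replicate 2. PLIN2 and the fibroblast and lipofibroblast sums lie higher in both GFP-HI libraries, while CD36 and the endothelial, macrophage, leukocyte and adipocyte sums lie lower.

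For each member past the threshold, the gene with the most similar pattern over the 4 libraries was sought among 9246 genes with a symbol and a mean of at least 10 CPM, as the smallest Euclidean distance between log2 CPM values centred on the gene's mean. For PLIN2 it was DTWD1, at 50.1 and 113 CPM in GFP-HI and 21.0 and 12.3 CPM in GFP-NEG (distance 0.18). For ADIPOQ it was ARHGAP4, at 5.57 and 2.88 CPM against 49.5 and 86.1 CPM (distance 0.17). ADIPOQ had only 2 and 0 counts in GFP-HI, so its log2 CPM there, and with it this distance, depend on the prior count. For CD36 it was LDHA, at 185 and 386 CPM against 739 and 945 CPM (distance 0.17). The call of DTWD1 was lost in the same 2 fits without a library as that of PLIN2, and LDHA did not pass (adjusted p = 0.10, edgeR). A distance over 4 libraries is a description of these libraries.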

How the data were processed

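The authors deposited whole-number counts per gene for each of the 4 libraries, and a table of the comparison with log2 fold changes, a test statistic (a score), p-values and normalized values (a linear signal), per the file headers. That table's counts equal those of the single tables, and 2 of its 4 normalized columns carry another library than their heading says, so they were not used. The submitters' processing notes name featureCounts, Subread 1.5.2 and DESeq2 1.37.6. Aligner, strand setting and build are not given in the sources used here. The Ensembl identifiers of 834 genes were replaced by symbols from a gene name table.

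Counts were tested with edgeR 4.0.16 in R 4.3.3 (quasi-likelihood, filterByExpr, TMM, group as the only term, Benjamini-Hochberg over 19682 genes). The genewise spread was moderated fully to the trend. Standard errors, intervals and p-values therefore follow the spread of genes at like levels, not that of a gene's own replicates. Log2 CPM used a prior count of 2. DESeq2 1.42.0, other scalings, filters and thinning were alternatives. Headings of the normalized columns name pig 1 and pig 2 in both groups, and the pairing of replicate numbers by animal rests on them. It is not certain, since 2 of these headings stand over another library's values and the count columns name replicates only. Deviations of same-numbered libraries correlated across genes with r = 0.160. P-values rest on 2 libraries a group. Members, gene lists and the rule for names (called genes, at most 4 a direction and list) were chosen with earlier results of these data known, the list of other organs' genes after the counts had been seen. A gene of the lists is not reported here and was left out of their counts.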

Additional observations from a re-analysis of the deposited data

How the results depend on the processing

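The member counts, 1 higher and 2 lower, were the same under RLE scaling, no filter, a filter of 10 counts, DESeq2, thinning and both fits with the replicate block, and FABP5 made 3 lower under upper-quartile scaling and library size alone. With the replicate block in edgeR PLIN2 was at 2.29, ADIPOQ at -5.67 and CD36 at -1.81, and this pairing, which is not certain, changed no member's call. Of the related genes named, edgeR with the block lost ADRB3 and GPIHBP1, and DESeq2 with it lost these, ABHD5, FITM2, LPIN2, SLC27A1, FABP3, LEPR and WNT10B and gave LEP and PLIN1 no adjusted p. Leaving out a library gave 0 to 1 members higher and 1 to 2 lower, 3 to 9 related genes higher and 8 to 14 lower, and 216 to 1635 of all genes higher and 1575 to 4999 lower. Without GFP-NEG replicate 2 the calls of PLIN2, ADIPOQ and CD36 were all lost, and the member that passed as lower was LPL. Related genes higher numbered 7 under upper-quartile scaling, library size alone and thinning, and lower ones 13 under DESeq2 with the replicate block, against 20. All genes higher numbered 1083 under upper-quartile scaling and 888 with library size alone (16.1% and 13.4% of calls, against 23.2%). All genes lower numbered 3524 with the filter of 10 counts, 3576 after thinning and 3273 under DESeq2 with the replicate block, against 5433, and fewer genes were tested in the filter (16993) and thinning (16501) fits. For the others the cause was not tested. Signs turned for members that passed in no fit: PLIN1 was at 0.031 with the replicate block in edgeR, and without single libraries it ranged from -2.85 to 6.21 (the latter against a library with 0 counts), PPARG from -0.37 to 0.20 and CEBPA from -0.59 to 0.59. At GFP-NEG depth, genes of a few counts such as PLIN1 and ADIPOQ have little precision.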
